A study of Mus musculus with 22 samples.

Results

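In kidneys of 5 nondiabetic db/m mice, reads recovered with an antibody against N4-acetylcytidine (ac4C), called IP here, were compared with RNA-seq reads of the same animal number in all 9857 ac4C peaks of the series. The 5 IP and 5 RNA-seq libraries were taken by genotype, and each IP library was paired with the RNA-seq library of the same animal number. Ratios are given for the 6697 peaks, in 2938 of 4909 genes, that held 10 or more RNA-seq reads on average over the 5 animals. The series also holds 6 db/db mice, which are obese and diabetic because both copies of their leptin receptor gene are mutated. The db/m mice are heterozygous carriers of that mutation, so the controls share it on one chromosome, and no other allele or treatment is named for either group. The study's mice were male. The age at which the sequenced kidneys were taken is not given in the sources used here. The sample titles number the mice. The edgeR p-values and the standard errors rest on the spread between these numbered samples pooled over peaks. Neither reflects the spread of a single peak between animals.

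ac4C is a modified cytidine that the acetyltransferase NAT10 places on ribosomal RNA, transfer RNA and messenger RNA, and it has been linked to mRNA stability and translation. In acRIP-seq, polyadenylated RNA is broken into short pieces, pieces carrying the mark are captured with the antibody, and both the captured and the starting RNA are sequenced. The kidney cortex consists mainly of proximal tubules, whose cells reabsorb solutes and are rich in mitochondria, so their transcripts take a large share of kidney RNA. An antibody signal read without the abundance of each transcript therefore favours the genes of these cells. The log2 ratio used below is the log2 of IP over RNA-seq reads of a peak after scaling of the libraries. It is relative to the other peaks, because only reads inside peaks were counted and the depth of the whole libraries is unknown. A value of 0 thus means a peak that took the same share of both libraries, not a peak without ac4C. A peak was called enriched or depleted when the Benjamini-Hochberg adjusted p-value of edgeR's quasi-likelihood test was under 0.05 and the absolute log2 ratio was over 1.

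The peaks are regions of genes, and 155 of the separate short ones cover a transcription start given by RefSeq for GRCm38.p6. For these the first transcribed bases are known. The ends of the order are shown to let the reader compare what was captured most and least relative to the transcript level. The first 30 transcribed bases of the 6 start-site peaks with the highest log2 ratio (2.76 for Lgr4 to 2.28 for Irf2bp1) are these, taken from coding genes whose peak was called with 1 sign in all 5 animals. Capitals mark the motif CNNCNNCNNCNN on the sense strand where it was found.
Lgr4, chr2:109917647-109917676, plus strand: agaagggaaaaggacgcgcggagcgggagc
Slc25a28, chr19:43674852-43674881, minus strand: ccggaggccccgggctctctgggccgcgcc
1810013L24Rik, chr16:8830100-8830129, plus strand: gaggCGTCGACGCCGCCGCCGTagacgacg
Arih1, chr9:59486345-59486374, minus strand: gtctgccgggcccgcgcgcgtcgcgccatg
Pkp4, chr2:59160850-59160879, plus strand: ggggCGGCGGCCTCTGagcagtctagaggg
Irf2bp1, chr7:19004058-19004087, plus strand: agaagaaggaggtggaggCGACGGCGGCCG
The 6 start-site peaks with the lowest log2 ratio (-1.37 for Slc22a6 to -4.70 for Ubap2l) begin with these bases.
Slc22a6, chr19:8617996-8618025, plus strand: aaacgctgcctgcgtaagagtcagggctcc
Atp5g3, chr2:73911297-73911326, minus strand: aagagccgcaccgcgcttgcgcgcccagcc
Atp5g1, chr11:96075602-96075631, minus strand: gggaggtgagtcagtcaccttgagcaggga
Arhgdia, chr11:120581595-120581624, minus strand: cggaagtcttgtgaccccggaagtgaccgt
Guca2b, chr4:119658916-119658945, minus strand: tataaggggctgctggcccagaggcaggtg
Ubap2l, chr3:90052486-90052515, minus strand: gaatcttatatcacgtgacaggggcggcgc

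The IP libraries of db/m mice held 9125099 to 10293757 reads in peaks and the RNA-seq libraries 3151035 to 3265239. Both libraries of animal 2 stood apart. Its RNA-seq level was over 2 times that of every other animal in 159 of the 6697 peaks, where each other animal reached this in 0 to 4, and its IP level in 278, where each other animal reached this in 2 to 14. Without it, 27 of the 838 enriched and 2 of the 473 depleted peaks described below would have had under 10 RNA-seq reads on average. Of the 32 proximal tubule markers, 18 had a peak over the minimum, with a summed RNA-seq level in their peaks of 28929 to 33114 CPM (read counts scaled to the total of reads in peaks), and none of the 6 blood cell markers had a peak. Of the other cell types, 1 of 13 immune markers had a peak over the minimum, and the peaks of 2 of 9 adipocyte markers and 1 of 8 adrenal cortex markers reached at most 0.307 and 0.322 CPM. Umod, the main marker of the loop of Henle, had no peak over the minimum. The table lists peaks and not genes, so a gene without a peak has no value here.

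Capture relative to transcript abundance differed widely between peaks and was alike between animals. Of the 6697 peaks, 838 in 454 genes were enriched and 473 in 343 genes were depleted, which is 12.5% and 7.06% of the peaks tested over the minimum. Over all 9857 peaks, 1379 (14%) were enriched and 518 (5.26%) were depleted. Without the scaling of libraries by TMM (trimmed mean of M-values), 976 peaks over the minimum were enriched and 321 were depleted, so that enriched peaks made up 75.3% of the calls in place of 63.9%. Without animal 2, 773 (11.5%) were enriched and 471 (7.03%) depleted. The median log2 ratio was -0.03, the interquartile range was -0.53 to 0.55, and the range was -4.78 to 4.75. The sign was the same in all 5 animals in 65.3% of the peaks. A further 3236 peaks passed the adjusted p-value with a ratio inside the fold threshold.

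The highest ratios among coding-gene peaks up to 1000 bases belonged to genes with few RNA-seq reads. Among called peaks with 1 sign in all animals, Gm10800 led with a log2 ratio of 4.46 (standard error 0.13; 4.11 without animal 2), a gene model that lies in satellite repeat sequence, so its reads may come from many copies and its value is uncertain. It had 1317, 2544, 2110, 2674 and 1512 IP reads against 17, 8, 44, 56 and 23 RNA-seq reads in animals 1 to 5. The ratios of single animals ran from 3.87 to 6.53, a spread that the standard error leaves out. Next came Ube2q1, which encodes a ubiquitin-conjugating enzyme, at chr3:89773616-89773796 near the start of the gene. Its IP reads were 579, 974, 531, 566 and 633 and its RNA-seq reads 20, 24, 19, 19 and 19. All 5 animals lay between 3.03 and 3.67, and the log2 ratio was 3.34 (standard error 0.17, adjusted p = 3.6e-79 in edgeR's quasi-likelihood test), a 10.1-fold excess. Trim12c, of the TRIM family of antiviral ubiquitin ligases, had 359 to 539 IP reads and 10 to 25 RNA-seq reads, and its log2 ratio was 3.18. Animal 5 was the lowest there, at 2.37, and the other 4 animals lay between 3.21 and 3.42. The highest ratio of all peaks, 4.75 in Lpl, which encodes lipoprotein lipase, is set apart because its animals did not share a sign, and it was picked out after its value was seen. Its peak at chr8:68905265-68905533 had 27921, 28794, 145, 24817 and 125 IP reads against 211, 145, 51, 220 and 41 RNA-seq reads. Animals 1, 2 and 4 were at 5.15 to 6.01 and animals 3 and 5 at -0.20 and -0.03.

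The other 7 of the 10 highest peaks were of varied function. Aebp2, a zinc finger partner of the Polycomb complex that methylates histone H3, had 484, 2566, 660, 593 and 752 IP reads against 14, 59, 26, 33 and 35 RNA-seq reads. Animal 2 had the most reads in both libraries and the highest ratio, 3.80, where the others lay at 2.46 to 3.25. The log2 ratio was 3.14, and 2.87 without animal 2. Hoxd8, a homeobox gene of the posterior body axis, had 239 to 798 IP reads and 13 to 18 RNA-seq reads (log2 ratio 3.12). Zfp704, a zinc finger gene, had 273, 1955, 330, 177 and 279 IP reads against 11, 50, 9, 20 and 12 RNA-seq reads, and its animals spread from 1.42 to 3.64. This was an 8.02-fold excess (log2 ratio 2.63 without animal 2). Cdkn1c, the imprinted inhibitor of cyclin-dependent kinases also called p57, was the best measured of the 10. It had 2957, 4570, 2166, 1673 and 2297 IP reads against 142, 96, 104, 94 and 94 RNA-seq reads, with a log2 ratio of 2.95 (standard error 0.10, adjusted p = 6.8e-182 in edgeR's quasi-likelihood test). Without animal 2, which was the highest at 3.94, the ratio was 2.70. Eif3j2, a subunit gene of the initiation factor eIF3 with an 8.02-fold excess, Cacul1 (2.99) and Fbxw4 (2.97, or 2.63 without animal 2) completed the 10. In the 10 peaks the lowest animal was at 1.42 or above.

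The lowest ratios were found where IP reads were nearly absent from a listed peak. The Ubap2l peak, at chr3:90052440-90052628, had 28, 5, 3, 2 and 3 IP reads against 41, 95, 53, 68 and 61 RNA-seq reads, and its log2 ratio was -4.78 (standard error 0.33). Animal 1 was at -2.30 and the other 4 between -5.44 and -6.19. The peak overlaps 4933434E20Rik, and the counts do not separate strands. Cers2, which encodes the ceramide synthase for very long acyl chains and is abundant in kidney, had 16, 1, 15, 5 and 27 IP reads against 73, 52, 58, 60 and 74 RNA-seq reads (log2 ratio -4.10). Cbs, which encodes cystathionine beta-synthase of the transsulfuration pathway, had 1 to 13 IP reads against 27 to 44 RNA-seq reads (-3.92), and Txn2, the mitochondrial thioredoxin, had 0 to 23 against 23 to 41 (-3.56). The peaks of Eif5a, Plekhg5, Stat6 and Sec14l3 (-2.88 to -2.52) had at most 20 IP reads and 23 RNA-seq reads in any animal. Of the 473 depleted peaks, 10 held fewer than 10 IP reads on average. Ubap2l, Cbs and Txn2 were also peaks that the authors' peak caller had given an FDR of 0.119, 0.0977 and 0.242. Such values were few, since 10 of the 473 depleted peaks had a caller FDR over 0.05. Depleted here thus means a lower ratio than other peaks, not a region that the caller had rejected.

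The lowest ratio supported by many reads in both libraries belonged to Ndufb8, a subunit of respiratory complex I, in a peak of 60 bases at chr19:44555381-44555440 near the start of the gene. It had 763, 367, 557, 690 and 556 IP reads against 1027, 735, 1012, 946 and 1056 RNA-seq reads. All 5 animals lay between -2.62 and -2.12, and the log2 ratio was -2.40 (standard error 0.09, adjusted p = 1.1e-159 in edgeR's quasi-likelihood test), so that the peak took 5.27 times less of the IP than of the RNA-seq reads.

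**Figure D1:**
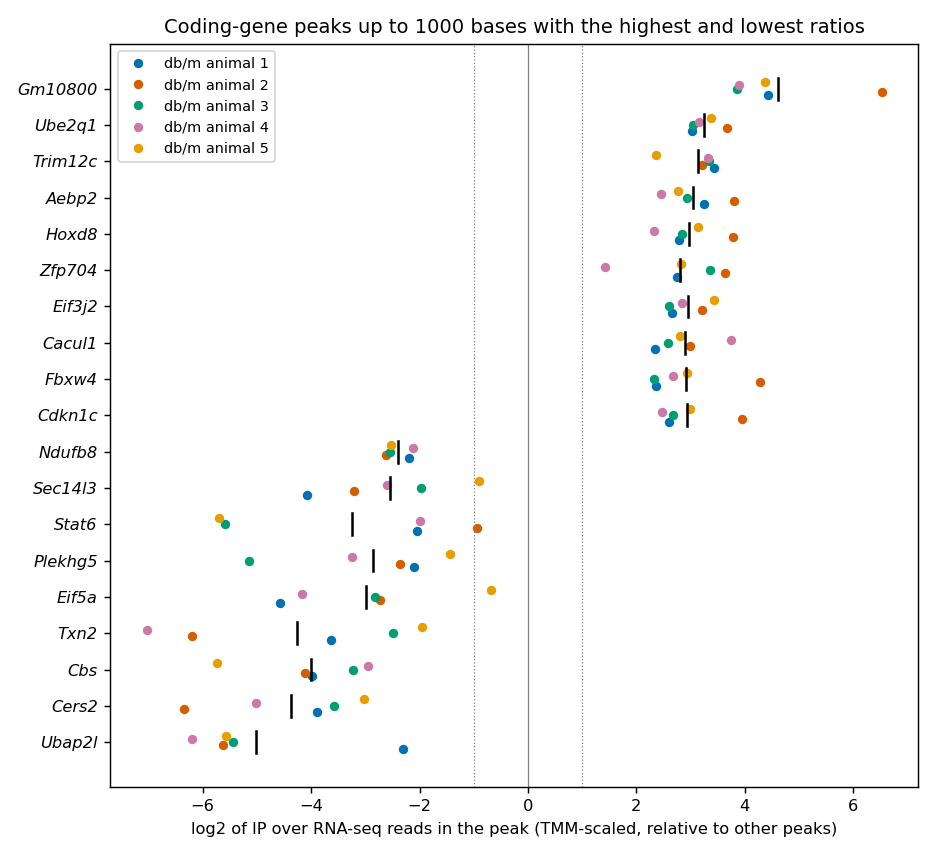
log2 ratio of IP over RNA-seq reads (x axis, after TMM scaling, with 1 read added to each count) in the 10 highest and in the lowest coding-gene peaks up to 1000 bases that are described in the text. Each point is 1 of the 5 db/m animals, the black bar is their mean, and dotted lines mark a log2 ratio of -1 and 1. The enriched peaks all lie at 1.42 or above, and the depleted peaks shown other than Ndufb8 spread over more than 2 log2 units between animals.

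Long peaks, over 1000 bases, had a narrower range, from -3.71 to 3.72. The highest among coding-gene peaks over 1000 bases was Gm10718 (log2 ratio 3.72), again a model in satellite repeats, with 244 to 783 IP reads against 14, 0, 8, 19 and 12 RNA-seq reads. Hnrnpll, a regulator of alternative splicing, had 1454, 5048, 1409, 1502 and 1538 IP reads against 66, 104, 79, 72 and 90 RNA-seq reads. Animal 2 was the highest at 3.97, and the log2 ratio of 2.91 was 2.59 without it. Tab2, an adaptor of the kinase TAK1 in NF-kB signalling, reached 2.54, or 2.08 without animal 2, which was at 3.93. The fibrillar collagen gene Col27a1 was at 2.32. The receptor phosphatase gene Ptprf was at 2.50, but its RNA-seq reads of 3, 40, 3, 5 and 14 passed the minimum through animal 2 alone, and the mean was 6.25 without it. Among the 5 lowest, Acat1, which encodes the mitochondrial acetoacetyl-CoA thiolase, had 478 to 609 IP and 474 to 599 RNA-seq reads, with all animals between -1.75 and -1.52 (log2 ratio -1.62). Xirp1 (-2.20), Tmem189 (-1.61) and Pak4 (-1.60) carry peaks of 147205, 26937 and 161975 bases that overlap other genes, so their reads cannot be given to 1 gene. The fifth, Dst (-1.78), passed the minimum of reads through animal 2 alone, which had 56 RNA-seq reads against 0 to 5 in the others. It was not called without animal 2 (adjusted p = 0.20 in edgeR's quasi-likelihood test), without animal 3 or without the pairing by animal.

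The next peaks have an annotation class other than protein_coding in the table, though those of Clcn2 and Mrpl20 lie in coding genes. Gm44732 (2.97), an antisense transcript, covers the same bases as the Cdkn1c peak with nearly the same reads, and the 2 cannot be told apart. Rn7s6, named as misc_RNA in the table and placed in RefSeq at a 7S RNA copy inside the Igk locus, had 2673, 1078, 2077, 2083 and 1997 IP reads against 110, 42, 88, 110 and 96 RNA-seq reads (log2 ratio 2.81). Its animals were close together, at 2.56 to 3.03, but 7SL RNA has many near-identical copies, so the place of origin is uncertain. Clcn2, a chloride channel gene with a transcript of the nonsense-mediated decay type, was at 2.55. The lowest of these types were 1500015A07Rik (-3.71), Gm19950 (-1.40) and Mrpl20 (-1.29), and the first has Afap1l1 and the second Gm39079 in the same bases.

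The strongest IP signals were not the strongest ratios. By IP level the leading genes were Ptms (18691 to 24950 CPM), Gm37376, whose peak lies in the long noncoding RNA Malat1 (4299 to 14621), Calr (6205 to 10820), Acsm2 (5288 to 7890) and Ptma (5878 to 6418). Ptms, which encodes parathymosin, had 4944 to 8695 CPM in RNA-seq and a log2 ratio of 1.54, and Acsm2, a medium-chain acyl-CoA synthetase of the proximal tubule, a ratio of 1.30 in its strongest peak. In Malat1 the RNA-seq level was the higher of the 2 in every animal (9301 to 22798 CPM), with a log2 ratio of -0.85, and animal 2 was the lowest in both libraries. The peaks of Hsp90ab1 and Calr took nearly the same share of both (-0.09 and -0.09).

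The ratio fell as the RNA-seq level of the peak rose. Levels were taken from the RNA-seq libraries of the db/db mice, which did not enter the ratio, and were divided by peak length. They were counted over the same bases. Traits of a region that all RNA-seq libraries share thus enter both the level and the lower part of the ratio. Over the 4088 peaks up to 1000 bases, Spearman's rho was -0.61 across peaks, which share libraries and are not independent replicates. Within single animals it was -0.57 to -0.54. The peaks were split into quintiles by level. In the lowest quintile (up to 54.2 CPM per kb) the median log2 ratio was 0.84, and 345 of 818 peaks (42.2%) were enriched and 15 depleted, against 12.5% and 7.06% of all peaks over the minimum. In the highest quintile (434 CPM per kb or more) it was -0.70, with 23 enriched and 206 (25.2%) depleted. Each quintile lay below the one before. The peaks had been called by the authors on IP over RNA-seq reads, and the median fold enrichment from that caller fell likewise, from 5.92 in the lowest quintile to 2.38 in the highest. The parts of that selection and of the shared bases in the relation were not tested.

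**Figure D2:**
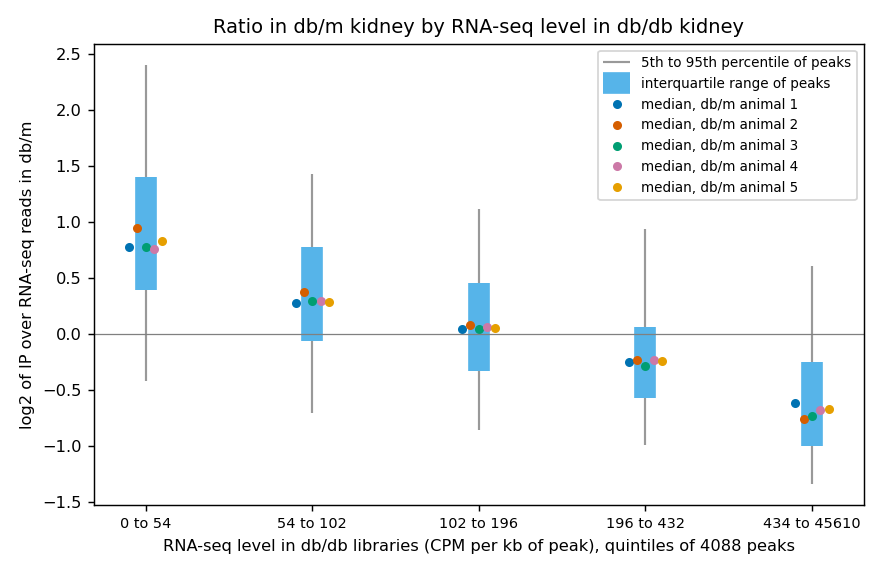
log2 ratio of IP over RNA-seq reads in db/m mice (y axis) for 4088 peaks up to 1000 bases, split into quintiles by RNA-seq level in db/db mice (x axis, CPM per kb of peak). Points are the medians of the 5 db/m animals, blue bars are interquartile ranges and grey lines run from the 5th to the 95th percentile. The median falls from 0.84 to -0.70, and all 5 animals follow the same order.

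Respiratory chain subunits were captured less, relative to their abundance, than most other peaks. In the 30 genes of nuclear-encoded respiratory chain subunits, 30 of 63 peaks, in 17 genes, were depleted and none was enriched, against 7.06% and 12.5% over all peaks. The 63 peaks form 35 groups of overlapping peaks. The median log2 ratio was -0.89, and relative to the median of all peaks over the minimum it was -0.861 ± 0.065 (SD, n = 5 animals). Beside Ndufb8, the start-site peaks of Atp5g3 and Atp5g1, which encode the c-ring of ATP synthase, had log2 ratios of -1.37 and -1.38. In Atp5g3 the IP reads were 807, 886, 860, 1056 and 878 and the RNA-seq reads 757, 584, 769, 763 and 775. The highest peak of the list, Ndufa5, was at -0.02.

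Cytosolic ribosomal proteins and chaperones were low as well, read against the same 7.06% depleted and 12.5% enriched over all peaks. Of the 47 peaks in 27 cytosolic ribosomal protein genes, 11 were depleted and 4 enriched (median -0.612 ± 0.078 relative to all peaks). The 47 peaks form 30 groups of overlapping peaks. Rps6, the ribosomal protein phosphorylated downstream of mTOR, had 184, 61, 172, 114 and 130 IP reads against 206, 157, 160, 199 and 188 RNA-seq reads (log2 ratio -2.19), and Rps10 was the highest at 1.42, with 3 to 14 RNA-seq reads. Of 49 peaks in 13 heat shock and ER chaperone genes, in 29 such groups, 8 were depleted and none enriched (-0.545 ± 0.074). In Calr, the calcium-binding chaperone calreticulin, a peak with 3436 to 3928 IP reads and 3452 to 4009 RNA-seq reads had a log2 ratio of -1.67, with all animals between -1.80 and -1.54. The mitochondrial ribosomal proteins (-0.371 ± 0.168, 1 of 15 peaks depleted) and the translation factors (-0.267 ± 0.061, 13 of 81 peaks depleted and 6 enriched) were nearer to the median of all peaks.

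The proximal tubule markers were also captured less, relative to their abundance, than most other peaks. Of their 49 peaks in 18 genes, 21 were depleted and 2 enriched, against 7.06% and 12.5% over all peaks (-0.729 ± 0.057, n = 5). The 49 peaks form 32 groups of overlapping peaks. Lrp2, which encodes the endocytic receptor megalin, had 2787, 2656, 2573, 3079 and 2567 IP reads against 1664, 2300, 1754, 2045 and 1851 RNA-seq reads, with a log2 ratio of -1.16 and a range over animals of -1.41 to -1.02. Slco1a1, an organic anion transporter, was the lowest at -1.47 (range -1.53 to -1.42), and Slc34a1, the sodium phosphate cotransporter, lay inside the threshold at -0.86. Slc22a6, the organic anion transporter OAT1, was at -1.37 over its start site, where IP reads of 1981 to 2553 stood against RNA-seq reads of 1749 to 2072. Acsm2 held both enriched peaks of the list, which overlap each other, and also 2 depleted peaks at -1.29 and -1.47. Its strongest ratio was in a peak that had 67598, 52746, 63608, 77656 and 59167 IP reads against 8229, 6501, 8388, 8298 and 8694 RNA-seq reads, with a log2 ratio of 1.33 (standard error 0.05). In bulk kidney, fewer cells of a type and less RNA per cell cannot be told apart, for the RNA-seq level that forms the lower part of each ratio.

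Few peaks covered the other cell types. Over all peaks 7.06% were depleted and 12.5% enriched. All 3 loop of Henle markers with a peak had a depleted one (3 of 8 peaks), with a median of -0.682 ± 0.147 relative to all peaks, and the distal tubule and collecting duct markers were at -0.548 ± 0.222. The differences of both lists from the proximal tubule markers were not tested. Over the peaks called in db/db mice alone, the loop of Henle median was -0.219 and that of the proximal tubule markers -0.528. Among distal tubule and collecting duct markers, 3 of 9 peaks were depleted, in Aqp3 at -1.12 among others, and 2 were enriched, in Scnn1a, the alpha subunit of the epithelial sodium channel, at 1.27. Scnn1a had 2929, 5338, 3628, 2794 and 3377 IP reads against 379, 531, 489, 412 and 502 RNA-seq reads. Aqp2 was at -0.45 and was not called. None of the 6 podocyte peaks and 7 endothelial peaks was called. The solute carriers as a family had 22 of 105 peaks depleted and 11 enriched (-0.274 ± 0.030).

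Collagen, laminin and zinc finger genes were captured more, relative to their abundance, than most other peaks. Of 61 peaks in 15 collagen and laminin genes, 23 in 9 genes were enriched and 1 was depleted (0.743 ± 0.077, n = 5), against 12.5% enriched over all peaks. The 61 peaks form 36 groups of overlapping peaks. Col27a1 had 540, 713, 552, 492 and 864 IP reads against 34, 33, 45, 30 and 58 RNA-seq reads, and Lamb1, a laminin chain of basement membranes, held the depleted peak (-1.14). Col4a3bp, a lipid transfer protein gene that is no collagen, was included by its name. Of 86 peaks in 37 zinc finger genes, 21 were enriched and 4 depleted (0.448 ± 0.086), and the median was 0.149 with a minimum of 50 reads. The 86 peaks form 48 such groups. The 9 peaks of 5 immediate early genes had 3 enriched and none depleted (0.907 ± 0.323). Ier2, an early response gene, had 191, 95, 121, 140 and 79 IP reads against 35, 14, 12, 10 and 10 RNA-seq reads (1.33), and Jun was the lowest at 0.64. These lists also had low RNA-seq levels, with a median of 12.8 CPM per kb in the collagens and laminins, 44.9 in the zinc finger genes and 52.9 in the immediate early genes, where the respiratory chain had 634 and the proximal tubule markers 955. The part of the level in the place of a list was not tested.

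The remaining lists were mixed, read against 12.5% enriched and 7.06% depleted over all peaks. The cytochrome P450 and UGT enzymes had a median of 0.553 ± 0.160 above all peaks, which turned to -0.956 with 1 peak per overlapping group, and 7 of 28 peaks were depleted and none enriched. The peaks lie in 9 separate places only, and the shared Ugt1a exons are listed many times (0.53 in Ugt1a6b). Ugt3a1, a glycosyltransferase, was at -2.26, with IP reads of 197 to 344 below RNA-seq reads of 235 to 454 in every animal. Of the cytoskeletal and matrix adaptor genes, Plec stood out among coding peaks. All 4 separate short peaks of this gene, which encodes the cytolinker plectin, were enriched, at 1.23 to 1.92. The last passed the minimum through animal 2 alone, with 2, 30, 5, 6 and 7 RNA-seq reads, and its animals ran from 0.48 to 3.30. Evpl, which encodes the related plakin envoplakin, had 3 of 5 separate peaks enriched. Plec and Evpl were picked out after their values were seen, as the genes with 3 or more separate peaks called enriched. The chromatin and bromodomain genes (-0.127 ± 0.089, 6 of 38 peaks enriched and 1 depleted) and the histone genes (0.184 ± 0.229) were close to the median. The mitochondrially encoded genes had 3 peaks, too few to describe as a group. Actb was at 0.05.

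**Figure D3:**
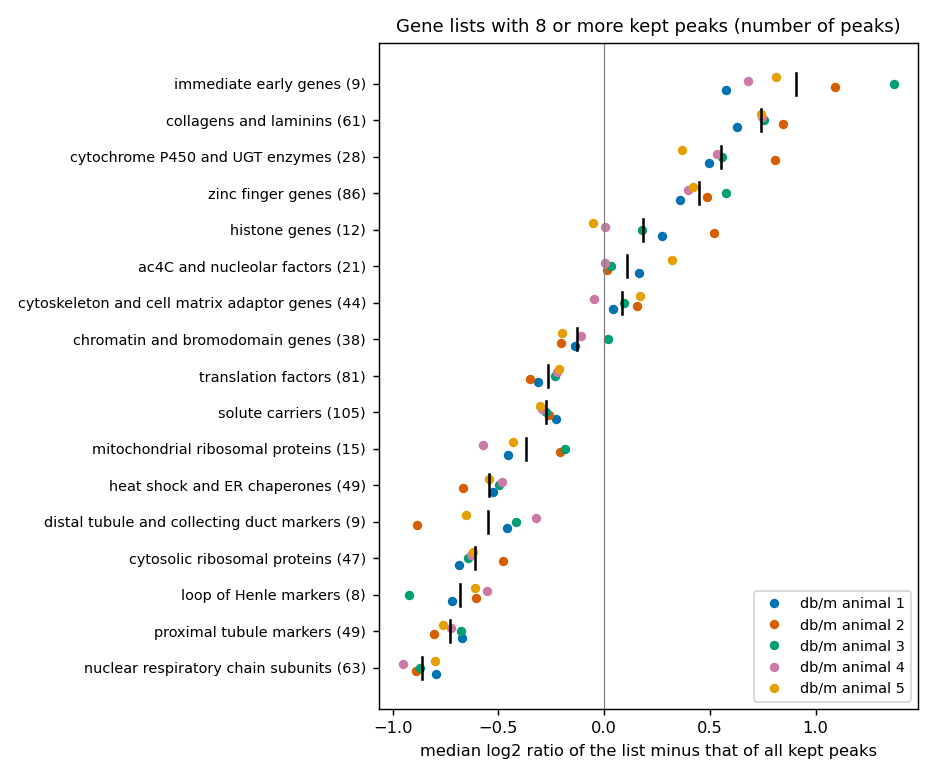
Median log2 ratio of the peaks of each gene list minus that of all peaks over the minimum (x axis), for lists with 8 or more such peaks (number in brackets). Points are the 5 db/m animals and the black bar is their mean. Respiratory chain subunits (-0.861) and proximal tubule markers (-0.729) lie lowest, collagens and laminins (0.743) and immediate early genes (0.907) highest, and in these 4 lists all animals are on the same side of 0.

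Nat10 and the other listed ac4C and nucleolar factor genes were not clearly set apart as a group at the minimum of 10 reads. The 21 peaks of these 9 genes, in 12 groups of overlapping peaks, lay at 0.107 ± 0.135 relative to all peaks. Of them 4 (19.0%) were enriched and 2 (9.52%) depleted, against 12.5% and 7.06% over all peaks. With a minimum of 50 reads, the median of the list was 0.262, a move of more than the SD over animals. The peak of Nat10, at chr2:103725109-103725760, had 249, 226, 346, 158 and 256 IP reads against 106, 89, 95, 94 and 95 RNA-seq reads. Its animals ran from -0.92 to 0.17 around 0, and the log2 ratio of -0.34 (standard error 0.16) was not called (adjusted p = 0.071 in edgeR's quasi-likelihood test). Ncl, which encodes nucleolin, held both a higher and a lower peak. The first had 8004 to 11166 IP reads and a ratio of 1.46 in a narrow range of 1.42 to 1.52, and it overlaps the snoRNA gene Snora75. The second, of 2408 bases, was at -1.03, and at -0.97 without animal 2.

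Peak length had a small relation to the ratio. Relative to all peaks over the minimum, the median was -0.213 ± 0.021 (SD, n = 5) in the 1006 peaks up to 150 bases, 0.183 ± 0.034 in the 1795 peaks over 150 and up to 300 bases, 0.193 ± 0.033 in the 787 peaks over 300 and up to 600 bases, and -0.141 ± 0.051 in the 500 peaks over 600 and up to 1000 bases. The longer classes lay between -0.078 and 0.018. The shortest class had more depleted peaks (12.2%) than enriched ones (8.65%), and the class over 300 and up to 600 bases had 20.7% enriched and 5.21% depleted. All 5 animals were on the same side of 0 in the 4 classes up to 1000 bases. The shortest peaks also had the highest RNA-seq level, with a median of 195 CPM per kb, and the part of this in their low ratio was not tested.

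By BioType, the annotation class in the table, the 6379 protein-coding peaks set the median (-0.010 ± 0.004). The 204 peaks of nonsense-mediated decay transcripts lay 0.192 ± 0.0485 above it and the 85 antisense peaks 0.269 ± 0.079. Antisense peaks share their bases with genes on the other strand, and with a single peak kept per overlapping group their median was -0.067. Peaks that overlapped another gene were enriched in 16.6% and those that did not in 11.9%. The 3428 peaks of the db/m list and the 3269 of the db/db list had the same median within 0.004 and 12.3% and 12.8% of peaks enriched. The second list was called without the db/m libraries, so its values were not chosen on them.

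Peaks at the start of a gene had higher ratios than those elsewhere in it. The 1168 peaks that touched the first 500 bases of a gene had a median of 0.218 ± 0.055 above all peaks, and 260 of them (22.3%) were enriched. The 4534 peaks inside genes were at -0.067 ± 0.016 with 10.7% enriched, and the 766 peaks at the last 500 bases at 0.031 ± 0.035 with 7.83%. The difference was also seen within genes, where transcript abundance is shared more closely. In 95 genes with a short peak at the start and another elsewhere, the start peak was higher in 64 (67.4%), and the median difference was 0.518 ± 0.143 (SD, n = 5; lowest animal 0.370, highest 0.716). Start peaks also had the lower RNA-seq level, with a median of 52.2 CPM per kb against 75.7 inside genes and 142 at gene ends, and the part of this in their ratio was not tested.

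**Figure D4:**
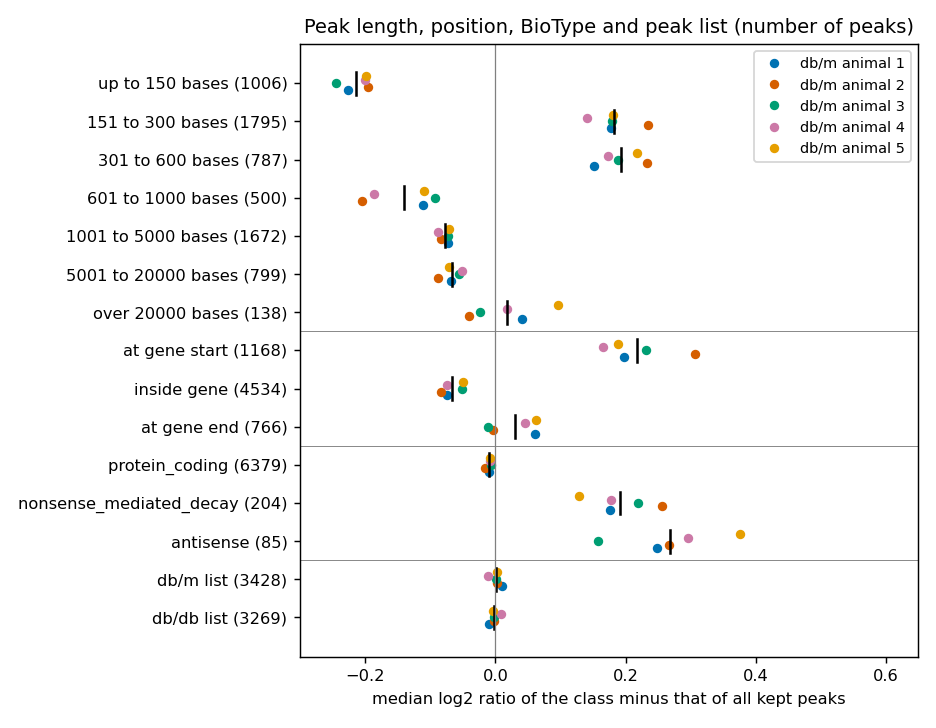
Median log2 ratio of each class of peaks minus that of all peaks over the minimum (x axis), by length, position in the gene, BioType and peak list, with the number of peaks in brackets. Points are the 5 db/m animals and the black bar is their mean. Peaks up to 150 bases lie between -0.245 and -0.196 in the 5 animals, and peaks at the gene start lie 0.165 to 0.306 above all peaks.

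Among the 155 peaks over a start site, the ratio was higher where the sequence around the start was richer in G and C. This sequence is a window of 300 bases, 250 before the start and the first 50 transcribed. Most of it thus lies outside the transcript that begins there. These peaks had a median of 0.396 ± 0.093 above all peaks, with 39 enriched and 14 depleted. The peaks were split into tertiles by GC content. In the lowest tertile (34 to 59.7% of the 300 bases around the start) the median was -0.010 ± 0.083, in the middle tertile 0.386 ± 0.068 and in the tertile with 68% or more 0.756 ± 0.148. Spearman's rho between ratio and GC content of the 300 bases was 0.34 across these peaks, and 0.27 to 0.37 in single animals. In the first 50 transcribed bases alone, rho was 0.21 for GC content and 0.04 for the content of C. RNA-seq level was lower at GC-rich starts (rho -0.25), and the ratio was more closely related to the level (rho -0.65). The enriched Lgr4 peak, for the receptor of R-spondins, had 920, 6961, 1115, 1021 and 1183 IP reads against 43, 192, 73, 63 and 64 RNA-seq reads, and animal 2 was again the highest. Its log2 ratio was 2.45 without animal 2.

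The motif CNNCNNCNNCNN, cytidines each followed by 2 other bases in 4 repeats, which has been described for ac4C sites, was searched in the first 50 transcribed bases on both strands. On the sense strand it was present in 20.0% of the 155 start-site peaks and in 21.1% of the 32851 promoter windows of the RefSeq table. It was present in 25.6% of the enriched, 19.6% of the uncalled and 7.14% of the depleted start-site peaks, the last being 14 peaks. The reverse complement was present in 69.7% of the start-site peaks and 29% of all windows. The 2 sets differ in composition, with a median GC content of these 50 bases of 70% and 56%. The part of this in the match rates was not tested. The 31 peaks with the sense motif had a median of 0.727 ± 0.171 above all peaks, and the 124 without it 0.322 ± 0.066. Their median GC content over the 300 bases was 68% and 62%. A match is only a match of letters in these 50 bases, and enriched starts such as that of Lgr4 show none in the bases printed above.

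Separate peaks of the same gene often differed. In 338 genes with 2 or more short peaks that do not overlap, the median range of the log2 ratio within a gene was 0.72, and 123 genes (36.4%) had a range over 1. Of the variance of the ratio over these 780 peaks, 54.9% lay between genes and 45.1% between peaks of 1 gene. With so few peaks per gene, a large share lies between gene means even where genes do not differ. That baseline was not computed, so the first share is no measure of a gene effect. In 11 genes an enriched and a depleted peak occurred together, and the 5 with the widest difference are given here. The widest was Eif3j2, whose peak at the gene start had 470, 885, 568, 639 and 589 IP reads against 21, 30, 28, 27 and 17 RNA-seq reads, the 8.02-fold excess given above, while a peak of 60 bases further along had 10, 23, 20, 55 and 27 against 27, 23, 31, 47 and 40 (-2.07). No animal of one peak reached the other. In Mlec, which encodes the ER lectin malectin, the start peak was at 1.31 and an internal one at -1.60, and in Ggnbp2 the start peak was at 1.63 (1.32 without animal 2) and an internal one at -1.17.

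The other 2 of these 5 genes had their enriched peak away from the start. Lzts3, a postsynaptic scaffold gene, had an internal peak with 4044, 5561, 3565, 3325 and 3833 IP reads against 245, 219, 250, 212 and 268 RNA-seq reads (2.40) and another internal peak with 298 to 861 against 258 to 476 (-1.12). In U2af2, the large subunit of the splicing factor that recognises the polypyrimidine tract, the peak at the gene end was at 1.64 and an internal one at -1.08. The depleted U2af2 peak was inside the fold threshold (-0.99) without TMM.

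**Figure D5:**
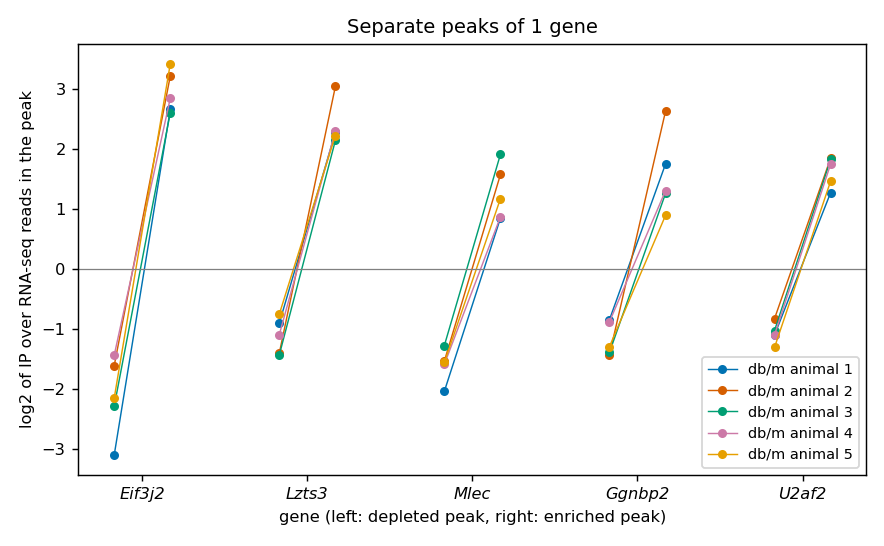
log2 ratio of IP over RNA-seq reads (y axis) for the 5 genes with the largest difference between a depleted peak (left point) and an enriched peak (right point) of the same gene. Lines join the values of 1 of the 5 db/m animals. In each gene every animal has the 2 peaks on opposite sides of 0.

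The order of the peaks was nearly the same in the diabetic animals. Across the 6697 peaks, the log2 ratio in db/m and that fitted in the same way in 6 db/db mice had a Spearman's rho of 0.95, across peaks that are no replicates. Of the 838 peaks enriched in db/m, 652 were enriched in db/db, which is 77.8% of the first and 85.9% of the 759 enriched in db/db. For the depleted peaks it was 343, or 72.5% of 473 and 84.3% of 407. The interaction of library type and genotype passed adjustment in 3 of the 9857 peaks (edgeR's quasi-likelihood test), and 666 had an unadjusted p under 0.05. Ndufb8 was the only one of the 3 among the peaks named by rule, with -2.40 in db/m and -1.95 in db/db mice (difference -0.47, adjusted p = 0.029). The Lpl peak, set apart above, was another, with 4.75 in db/m and 1.60 in db/db mice (adjusted p = 8.5e-21 in edgeR's quasi-likelihood test). Its db/m animals did not share a sign. Sec14l3 was at -2.52 in db/m and 1.26 in db/db, but its reads were few and the difference did not pass (adjusted p = 0.55 in edgeR's quasi-likelihood test).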

How the data were processed

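Kidney RNA was studied as an ac4C IP and an RNA-seq library for each of 5 db/m and 6 db/db mice, grouped by sample title. The authors enriched mRNA with oligo d(T) beads, fragmented it, aligned cleaned reads to GRCm 38 (per the submitters' processing notes), called peaks for each genotype and deposited raw counts of reads per peak for the 22 libraries in 1 table. The aligner, peak caller, counter and versions are not given in the sources used here. The deposited fold enrichment is a ratio of IP over RNA-seq from the authors' peak caller, and the deposited FDR its adjusted p-value. Both were used only to describe peaks. The columns of log2 change, p-value and FDR between genotypes hold the authors' own comparison and were not used. A start of the table plus 1 matched a RefSeq gene start in 97 peaks and the start as given in 8, so positions are given from 1. Where peaks on opposite strands overlapped by 90% (52 pairs), the totals of 46 pairs were within 10%, so the counting did not use strand. Peaks of the 2 lists overlap (6414 separate groups), and their reads are counted more than once.

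Counts of all 9857 peaks were fitted in R 4.3.3 with edgeR 4.0.16 (glmQLFit and glmQLFTest, TMM) with animal and library type as terms. The common biological coefficient of variation was 0.120. The prior degrees of freedom were infinite, so that a peak's own spread had no weight and p-values are too small where animals differ. Standard errors are the absolute log2 ratio over the square root of the F statistic of this fit, and share that limit. Alternatives were limma 3.58.1 (voom), which keeps that spread, DESeq2 1.42.0 and those named in the closing section. IP and RNA-seq libraries with the same number in their titles were taken as 1 animal, and their deviations from the group mean correlated at 0.158 to 0.764. Values of single animals are log2 ratios after adding 1 read. Class values are medians relative to all peaks with 10 or more RNA-seq reads, with the SD over animals, in Python 3.11.15 (pandas 2.3.3, scipy 1.17.1). The scripts were tested on simulated data. At a count of 0, 3 reads remain possible, or 0.291 to 0.329 CPM for IP and 0.919 to 0.952 CPM for RNA-seq. This covers counting error alone, since PCR copies were not separated. Replicate libraries differed by more than sampling noise (chi-square of at least 3.51 per degree of freedom).

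Genes were matched to RefSeq of GRCm38.p6 (9408 of 9857 peaks). The named peaks were, among called peaks with the same sign in all animals and 1 per gene, the 10 highest and 10 lowest coding peaks up to 1000 bases, 5 and 5 longer ones, 3 and 3 of other BioTypes, 5 genes with opposite peaks, the extremes of each gene list, and a few kidney genes. A few of these are not reported here. At the minimum of 10 reads, Plekhg5, Rps10, Minpp1 and Plec had a mean of 10, and Gpr107 and Pbx2 were left out at 9.8. The members and lists were chosen with earlier results of these data known. Regions of a transcript and motifs inside peaks away from a start site were not analysed here, since no genome sequence was used.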

Additional observations from a re-analysis of the deposited data

Results flagged for a closer look

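Among the 84 named peaks, the ratio of a single animal lay far from the others in 6, where chance gives about 4.2 at this threshold. In 4 of them it was animal 2, which was the highest with 6.53 in Gm10800, 3.97 in Hnrnpll, 3.04 in Lzts3 and 1.71 in Scnn1a. Animal 5 was the lowest with 2.37 in Trim12c, and animal 1 the highest with -2.30 in Ubap2l. The Ndufb8 ratio differed between genotypes by -0.47 (db/m minus db/db) in the interaction test of edgeR, with -2.40 in db/m and -1.95 in db/db mice.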

How the results depend on the processing

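Most fits gave shares of calls within 1.5 times of those above (scaling without TMM, DESeq2, a minimum of 10 reads, 1 peak per overlapping group, each peak list alone, and peaks up to 1000 bases). A minimum of 50 RNA-seq reads left 5167 peaks, of which 3.39% were depleted. limma voom called 1081 of all peaks (11.0%) depleted, against 518, but 464 of those over the minimum of 10, against 473. Without the fold threshold, 27.5% of all peaks passed as enriched and 24.7% as depleted, and 32.2% and 35.7% of those over the minimum. Leaving out 1 animal gave 12.2% to 13.8% enriched and 5.07% to 5.51% depleted over all peaks, and 11.5% to 12.8% and 7.03% to 7.63% over the minimum. Without the replicate block for the animal, 845 peaks over the minimum (12.6%) were enriched and 452 (6.75%) depleted, and of the named peaks Dst alone lost its call.

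Class and gene list medians relative to all peaks moved by more than the SD over animals in 49 cases. Part of them is given below, and the cause was not tested. With a minimum of 50 reads, the length classes were at -0.410 (up to 150 bases), 0.0668 (over 150 and up to 300), -0.0376 (over 600 and up to 1000), 0.00102 (over 1000 and up to 5000) and 0.0233 (over 5000 and up to 20000). Antisense peaks were then at 0.138, the db/db list at 0.00810, the db/m list at -0.00928, gene ends at 0.0692, gene starts at 0.147 and internal peaks at -0.0477. Chosen after seeing the data, rho with the RNA-seq level was -0.507 over peaks with 50 or more reads. With the peak of most reads kept per overlapping group, the classes up to 150, 5000 and 20000 bases were at -0.275, -0.0693 and -0.0442, antisense peaks at -0.0674, and the db/db and db/m lists at -0.162 and 0.0834. In the db/db list alone, also chosen after seeing the data, the shortest class was at -0.188 and antisense peaks at 0.353. Among the gene lists, a minimum of 50 reads put zinc finger genes at 0.149, translation factors at -0.107, respiratory chain subunits at -0.715, cytosolic ribosomal proteins at -0.489, chaperones at -0.403 and proximal tubule markers at -0.573. Podocyte markers and adaptor genes then turned to -0.116 and -0.0585 and chromatin genes to 0.0201. Solute carriers were then at -0.307, loop of Henle markers at -0.526 and the ac4C and nucleolar factors at 0.262. With 1 peak per overlapping group, the P450 and UGT enzymes turned to -0.956 and the loop of Henle markers were at -0.833. Cytosolic ribosomal proteins were then at -0.724 and podocyte markers at 0.426. In the db/db list alone, loop of Henle markers were at -0.219, proximal tubule markers at -0.528 and podocyte markers at -0.163. Histone genes were there at 0.598, zinc finger genes at 0.336, respiratory chain subunits at -0.935 and cytosolic ribosomal proteins at -0.726.

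Of the named peaks that were not called, 3 changed sign. Ndufa5 was at 0.0713 without TMM and between -0.0400 and 8.25e-05 without 1 animal, Actb between -0.0636 and 0.113, and Egfl7, an endothelial marker, between -0.0201 and 0.210. Depth limits the depleted peaks with few IP reads, and 10 of 473 held fewer than 10 on average.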
